A study of Mus musculus with 4 samples.

Results

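The Ndrg (N-myc downstream regulated) family has 4 members in the mouse, Ndrg1, Ndrg2, Ndrg3 and Ndrg4, of the 12393 genes named on the array. All probe sets annotated to 1 of these symbols were taken, which gave 10 of the 22690 probe sets on the array: 5 for Ndrg1, 1 for Ndrg2, 2 for Ndrg3 and 2 for Ndrg4. No probe set with several gene symbols named a member. The members were chosen by gene symbol, but the family itself was selected on its hypoxia changes on these arrays, so its changes are given as a description and none of them was tested.

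RNA came from primary mouse embryonic fibroblasts grown from e14.5 embryos, and each of the 4 groups was measured on 1 Affymetrix array. The groups were wild type at 21% oxygen (normoxia), wild type at 0.1% oxygen (hypoxia), tri-CH1 at 21% oxygen and tri-CH1 at 0.1% oxygen, and all groups were kept for 6 h at 37 °C with 5% carbon dioxide in medium equilibrated beforehand at the same oxygen level. Tri-CH1 cells have no CH1 domain left on either p300 allele and on 1 of their CBP alleles, so that the other CBP allele keeps the domain. The number of embryos behind each culture was not given in the sources used here, and no value below has a replicate error.

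NDRG proteins share an alpha/beta hydrolase fold but are not known to act as hydrolases. Ndrg1 is a well-known target of HIF, the hypoxia-inducible transcription factor. HIF-1α recruits p300 and CBP by binding their CH1 domain. NDRG1 takes part in vesicle trafficking and myelin maintenance, and its loss causes a hereditary neuropathy. Ndrg2 is abundant in astrocytes and restrains growth in several tumour types, and Ndrg4 is best known from brain and heart. For NDRG3, oxygen is known to act on the protein, through prolyl hydroxylation and lactate binding. Several members are repressed by MYC family proteins, and SGK1, a serum- and glucocorticoid-induced kinase, phosphorylates NDRG1 and NDRG2.

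A signal of at least 500 was reached by 6066 to 6328 probe sets on each array. The signals are background-corrected intensities that the authors scaled to a common target, with scale factors from 3.46 (wild type, normoxia) to 10.3 (tri-CH1, normoxia). The background that had been subtracted, on the same scale, was 139 and 246 on the wild-type arrays (normoxia, then hypoxia) and 343 and 393 on the tri-CH1 arrays. The wild-type normoxia array was from another array lot than the other 3. All 12 markers of embryonic fibroblasts reached 500 on at least 1 array and 9 on every array, and their summed signal lay between 144698 and 154689. Single markers differed between the genotypes in both directions. Thy1 had 13148 and 12389 on the wild-type arrays (normoxia, then hypoxia) and 3837 and 3274 on the tri-CH1 arrays. Lum had 355 and 419, and 1562 and 2684. Thy1 and Lum were named after their values were seen. Of the markers of 10 other cell types, none of the lists for astrocytes, neurons, cardiac or skeletal muscle, endothelium, adipocytes and erythroid cells had a member at 500 on any array. The epithelial list had 3 such members of 7, the macrophage list 2 of 5 (Csf1r and Lyz2) and the Schwann cell and oligodendrocyte list 1 of 4 (Egr2). Rose, fell, higher and lower refer below to a difference of at least 2-fold after signals under 200 were raised to 200, for probe sets with a signal of at least 500 on the brighter array. Where the dimmer side was under 200 the fold is given as at least that size.

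Ndrg1 rose in hypoxia in both genotypes on all 5 of its probe sets, and its hypoxic signal in tri-CH1 was between 45.6% and 54.1% of that in wild type. The brightest probe set, 1420760_s_at, gave a signal of 535 in wild-type normoxia, 8843 in wild-type hypoxia, 460 in tri-CH1 normoxia and 4740 in tri-CH1 hypoxia. Both hypoxia arrays were far above both normoxia arrays, and the wild-type hypoxia array was the highest. Probe set 1456174_x_at gave 342, 7447, 222 and 4032 in the same order of arrays. Probe set 1450976_at gave 370, 7201, 197 and 3805. All of these probe sets ranked the arrays alike, with wild-type hypoxia first, then tri-CH1 hypoxia, wild-type normoxia and tri-CH1 normoxia. Probe set 1450977_s_at gave 295, 5405, 120 and 2859. The dimmest, 1423413_at, gave 293, 3612, 171 and 1645. These last 2 ranked the arrays in the same way. Names ending in _s_at or _x_at mark probe sets that may bind more than one transcript, and 3 of the 5 have such a name; the 2 plain _at probe sets showed the same order. The probe sets report on 1 RNA sample per array and are not replicates.

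**Figure D1:**
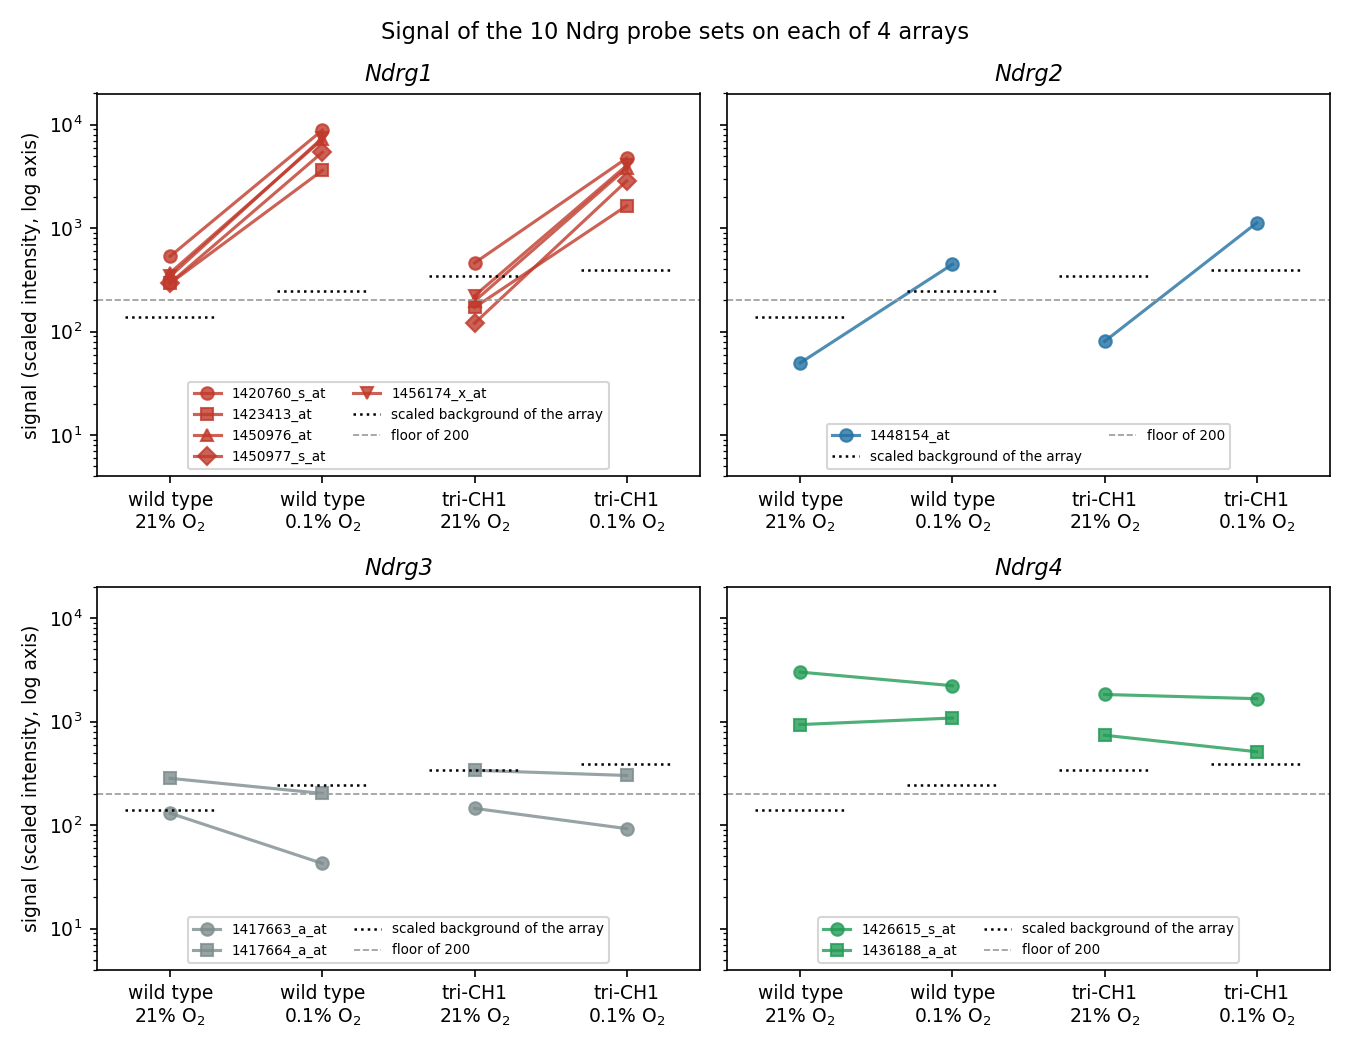
Signal of each Ndrg probe set (log axis) on the 4 arrays, with 1 panel per gene, lines joining normoxia to hypoxia within a genotype, dotted bars at each array's scaled background and a dashed line at the floor of 200. The 5 Ndrg1 probe sets lie between 120 and 535 in normoxia and between 1645 and 8843 in hypoxia.

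In wild type, the rise of Ndrg1 ran from 12.3-fold (1423413_at) to 21.8-fold (1456174_x_at), with a median log2 change of 4.19 and an SD of 0.31 over the 5 probe sets. No wild-type signal of Ndrg1 was under the floor, so these values are the same with and without it. Of the 6060 probe sets bright enough to count, 3.22% rose in wild type (1.34% fell), and the Ndrg1 probe sets ranked 2, 4, 6, 8 and 10 by size of rise. The ranks became 8, 10, 12, 13 and 19 without the floor, which removes the limit on probe sets that were dim in normoxia. The wild-type change uses the normoxia array of the other lot; the tri-CH1 change, next, does not. In tri-CH1, where 3.27% of 6294 probe sets rose and 1.19% fell, the Ndrg1 probe sets ranked 2, 3, 4, 7 and 15. Without the floor the tri-CH1 ranks were 2, 5, 6, 12 and 14. Probe set 1420760_s_at rose 10.3-fold there and 1456174_x_at 18.2-fold, both with all signals above the floor. The other 3 were under 200 in tri-CH1 normoxia and rose at least 8.23-fold (1423413_at), at least 14.3-fold (1450977_s_at) and at least 19.0-fold (1450976_at). These bounds are set by the floor of 200, while the scaled background of the tri-CH1 normoxia array was 343. With each array's scaled background as its floor the rises were 4.80-fold (1423413_at), 8.34-fold (1450977_s_at), 11.1-fold (1450976_at) and 11.8-fold (1456174_x_at, whose 222 is also under 343), and that of 1420760_s_at stayed at 10.3-fold. Without any floor the 5 tri-CH1 rises ran from 9.62-fold to 23.8-fold. The summed signal of the epithelial marker list went from 1107 to 5001 across the wild-type arrays and from 1468 to 3534 across the tri-CH1 arrays, of which the keratin Krt19 made up 145, 3881, 423 and 2676 in the order wild-type normoxia, wild-type hypoxia, tri-CH1 normoxia and tri-CH1 hypoxia. Without Krt19, set aside after its values were seen, the sum of the other 6 was 962, 1121, 1045 and 858 in that order. Among these, the keratin Krt8 had 398, 332, 502 and 192 and the keratin Krt18 had 424, 588, 269 and 306. Krt8 fell in tri-CH1, and Krt18 was not called in wild type. Krt8 in wild type and Krt18 in tri-CH1 were too dim to call. The Krt18 signal was larger in hypoxia in both genotypes, by less than 2-fold. The rest of the list, Epcam, Cdh1, Cldn3 and Cldn4, had signals of at most 20.3, 36.7, 177 and 149 on any array. The part of epithelial cells in the Ndrg1 change was not tested.

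The difference in fold between the genotypes depended on the probe set and on the floor. The log2 change in tri-CH1 minus that in wild type was -0.68 for 1420760_s_at and -0.26 for 1456174_x_at, which need no floor. With the floor it was at least -0.58 for 1423413_at, -0.36 for 1450977_s_at and -0.03 for 1450976_at, whose tri-CH1 normoxia signals were raised to 200. Without the floor these differences became -0.36, 0.38 and -0.01. With the floor all 5 values were below 0, but those given as at least a size are lower bounds. None reached 1 in size, which 1.54% of 6811 probe sets did downward. The sign for 1450977_s_at depended on the floor. The value above 0 without the floor, that of 1450977_s_at, rests on a tri-CH1 normoxia signal of 120 on an array with a scaled background of 343. With each array's scaled background as its floor, 1423413_at (-1.36) and 1450977_s_at (-1.13) were past 1, and the other 3 lay between -0.89 and -0.68. That floor is 343 for tri-CH1 normoxia but 139 for wild-type normoxia, which by itself lowers the difference for probe sets under 343 in tri-CH1 normoxia. With a floor of 400, 1423413_at was past 1, at -1.13. Between the probe sets of a gene this difference, with the floor, had an SD of 0.37 over 1505 genes. That is a spread on the same RNA and not between samples. With the floor, a difference of more than 1 SD was seen downward for 1420760_s_at and for 1423413_at, whose value is a lower bound. No SD was taken without the floor, so the 0.38 of 1450977_s_at has none to be set against. The tri-CH1 normoxia signals that enter the difference lay under the scaled background of 343 for all Ndrg1 probe sets except 1420760_s_at.

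The genotype difference in the hypoxic level of Ndrg1 varied less. In hypoxia the tri-CH1 signal was 53.6% of the wild-type signal for 1420760_s_at, 54.1% for 1456174_x_at, 52.8% for 1450976_at, 52.9% for 1450977_s_at and 45.6% for 1423413_at. On the log2 scale the differences ran from -1.13 to -0.89, with an SD of 0.10 over the 5 probe sets. Only 1423413_at was past 2-fold and so counts as lower, and 3.94% of 6186 probe sets were lower in this comparison; the other 4 stood between 1.85-fold and 1.89-fold below wild type. The increase in signal from normoxia to hypoxia in tri-CH1 was between 44.4% and 53.6% of that in wild type. In bulk RNA, fewer responding cells and less RNA per cell cannot be told apart. In normoxia the tri-CH1 signal was 86.0% of wild type for 1420760_s_at and between 40.7% and 64.7% for the other 4, whose tri-CH1 signals all lay under the scaled background of 343. With each array's scaled background as its floor, the log2 differences of these 4 were 0.23 (1423413_at), -0.11 (1450976_at), 0.22 (1450977_s_at) and 0.0027 (1456174_x_at). In each of these the tri-CH1 side is the floor of 343 and not a measured signal. The values above 0 are therefore set by the floor and show no reversal of direction. Only 1420760_s_at was bright enough to count in normoxia, and it was not called, with a log2 difference of -0.22 against an SD of 0.33 between probe sets of a gene; 4.00% of 6304 probe sets were lower and 3.16% higher. The hypoxia changes of a genotype and the genotype differences share arrays, so they are not independent views of the data.

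**Figure D2:**
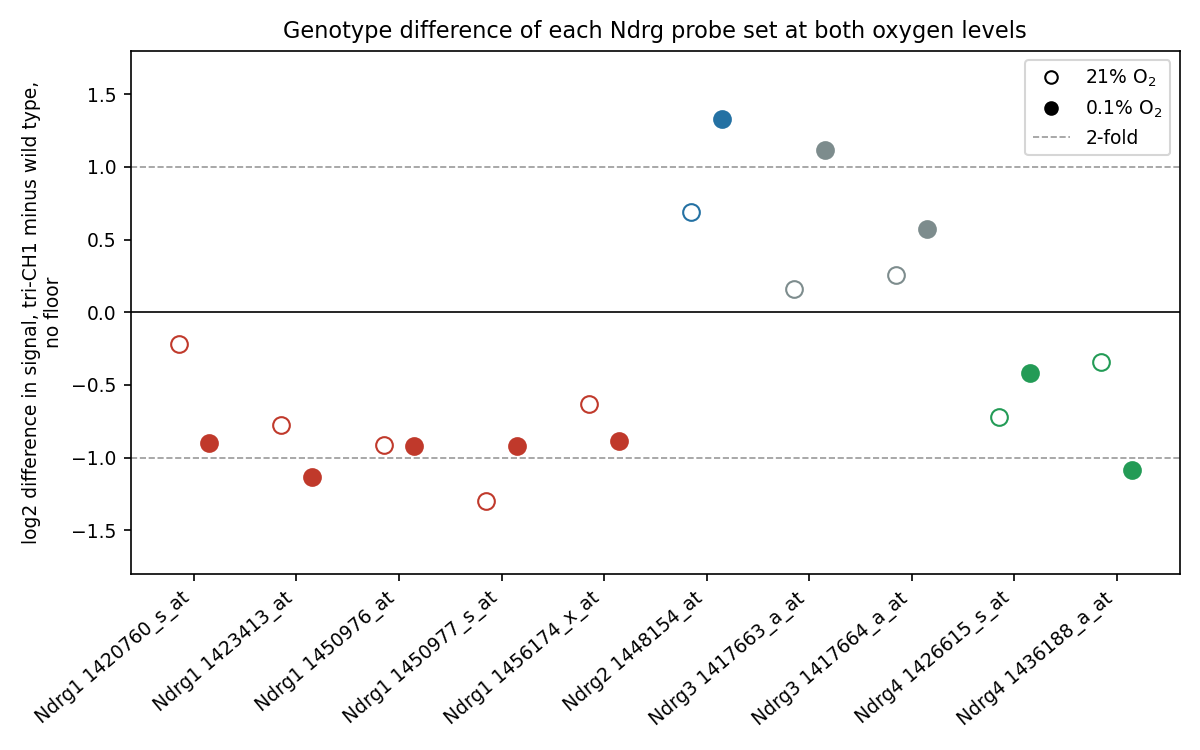
Log2 difference in signal, tri-CH1 minus wild type, for each of the 10 Ndrg probe sets at 21% oxygen (open circles) and 0.1% oxygen (filled circles), as deposited with no floor. The 5 Ndrg1 probe sets lie between -1.13 and -0.89 in hypoxia and scatter from -1.30 to -0.22 in normoxia, and Ndrg2 lies on the opposite side, at 0.69 and 1.33.

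Ndrg2, whose normoxia signals were smaller than the background subtracted on their arrays, rose in tri-CH1 and was higher there than in wild type at 0.1% oxygen. Its single probe set, 1448154_at, gave 49.8 in wild-type normoxia, 447 in wild-type hypoxia, 80.3 in tri-CH1 normoxia and 1124 in tri-CH1 hypoxia. Both hypoxia arrays were above both normoxia arrays, and here the tri-CH1 hypoxia array was the highest, the reverse of Ndrg1. The rise in tri-CH1 was 5.62-fold against the floor of 200 and 14.0-fold on the signals as given. The normoxia signal of 80.3 lay under that array's scaled background of 343, and with each array's scaled background as its floor the rise was 3.28-fold, or 1.71 on the log2 scale; with a floor of 400 it was 1.49 on the log2 scale. In wild type the hypoxic signal of 447 did not reach 500, so no call was made, with a fold of at least 2.24 and of 8.98 on the signals as given. In hypoxia tri-CH1 was 2.51-fold above wild type, with both signals over the floor and over their arrays' scaled background; 3.62% of 6186 probe sets were higher in this comparison. The difference in response was 1.33 on the log2 scale with the floor, past the limit of 1 that 1.86% of 6811 probe sets passed upward. Without the floor it was 0.64, and with each array's own scaled background as its floor it was 0.03, so this call rests on how the dim normoxia signals are treated. In the latter both normoxia signals are floors, 139 in wild type and 343 in tri-CH1. These unequal floors alone make a normoxia difference of 1.30, which lowers the difference in response. With 1 probe set, Ndrg2 has no internal check.

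Ndrg2 is the member whose promoters are shown, as the one that rose and has sequence in the promoter table, together with 1 promoter of Ndrg4, a member that did not change by 2-fold with oxygen. The table held 3 of the 4 members. The sequences are from RefSeq on build GRCm38.p6 and run over the 250 bases before an annotated start, 5′ to 3′ on the gene's strand. Capitals mark the core of the hypoxia response element to which HIF binds, searched as ACGTG and GCGTG on both strands.
Ndrg2, chr14:51913489-51913738, minus strand: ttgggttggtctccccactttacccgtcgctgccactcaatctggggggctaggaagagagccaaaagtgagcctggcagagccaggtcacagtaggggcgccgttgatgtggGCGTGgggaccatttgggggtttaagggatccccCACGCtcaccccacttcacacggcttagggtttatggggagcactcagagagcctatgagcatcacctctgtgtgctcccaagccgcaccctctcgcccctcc
Ndrg2, chr14:51914005-51914254, minus strand: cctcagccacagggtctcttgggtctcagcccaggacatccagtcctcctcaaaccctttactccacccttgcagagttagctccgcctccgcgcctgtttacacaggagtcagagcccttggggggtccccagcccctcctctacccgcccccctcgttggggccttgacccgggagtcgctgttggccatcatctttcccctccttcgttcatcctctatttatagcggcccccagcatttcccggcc
Ndrg4, chr8:95677513-95677762, plus strand: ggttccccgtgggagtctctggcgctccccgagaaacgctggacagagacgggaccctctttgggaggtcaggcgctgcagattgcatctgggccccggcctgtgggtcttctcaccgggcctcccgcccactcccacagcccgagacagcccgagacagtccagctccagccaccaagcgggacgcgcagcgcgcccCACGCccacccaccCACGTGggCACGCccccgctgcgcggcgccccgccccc
The first Ndrg2 window held GCGTG at -137 and -103 from the start, the latter on the opposite strand, and the second held neither core. The other Ndrg2 window overlaps the first and held GCGTG at -134. The Ndrg4 window held GCGTG on the opposite strand at -52 and -30 and ACGTG on both strands at -38 and -37, where the overlapping pair forms the E-box CACGTG, the motif that MYC and MAX bind. Over all 32851 windows of this length, 38.6% held either core (ACGTG 16.6%, GCGTG 28.2%) and 6.02% held CACGTG. Of the 2 Ndrg3 windows, 1 held GCGTG at -203 and -94, and of the 4 Ndrg4 windows a second held it at -136. Such short matches are a description of the letters only. The promoter of Ndrg1 was not analysed here.

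Ndrg3 was dim on every array. Probe set 1417664_a_at gave 283 in wild-type normoxia, 202 in wild-type hypoxia, 338 in tri-CH1 normoxia and 302 in tri-CH1 hypoxia. Probe set 1417663_a_at gave 130, 42.6, 145 and 92.4, all under 200. Neither reached 500, so Ndrg3 could not be called in any comparison. On both probe sets the signals as given were smaller in hypoxia than in normoxia, with log2 changes of -0.48 and -1.61 for the wild-type pair of arrays and of -0.17 and -0.65 for the tri-CH1 pair. Both were larger in tri-CH1 at both oxygen levels, by 0.26 and 0.16 in normoxia and 0.58 and 1.12 in hypoxia. Of these 8 signals, 1 lay above its array's scaled background, 283 against 139 in wild-type normoxia. Probe set 1417664_a_at started in the range of the Ndrg1 probe sets, at 283 and 338 in normoxia, and its hypoxic signals of 202 and 302 show no rise of the size seen for Ndrg1.

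Ndrg4 was above 500 on all 4 arrays and did not change by 2-fold with oxygen in either genotype. Probe set 1426615_s_at gave 3009 in wild-type normoxia, 2224 in wild-type hypoxia, 1829 in tri-CH1 normoxia and 1666 in tri-CH1 hypoxia. Here the wild-type arrays were the 2 highest. Probe set 1436188_a_at gave 936, 1083, 739 and 511, again with both wild-type arrays above both tri-CH1 arrays. The log2 change with hypoxia on 1426615_s_at was -0.44 for wild type, and -0.13 for tri-CH1. On 1436188_a_at it was 0.21 and -0.53, so the probe sets disagreed on which genotype had the larger decrease. In hypoxia 1436188_a_at was 2.12-fold lower in tri-CH1, while 1426615_s_at had a log2 difference of -0.42. In normoxia the log2 differences were -0.34 and -0.72, neither past 2-fold. Markers of the tissues in which Ndrg4 is best known did not reach 500 on any array, with summed signals from 504 to 799 for 5 neuronal markers and from 412 to 604 for 5 markers of cardiac muscle. The part of such cells in the Ndrg4 signal was not tested.

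**Figure D3:**
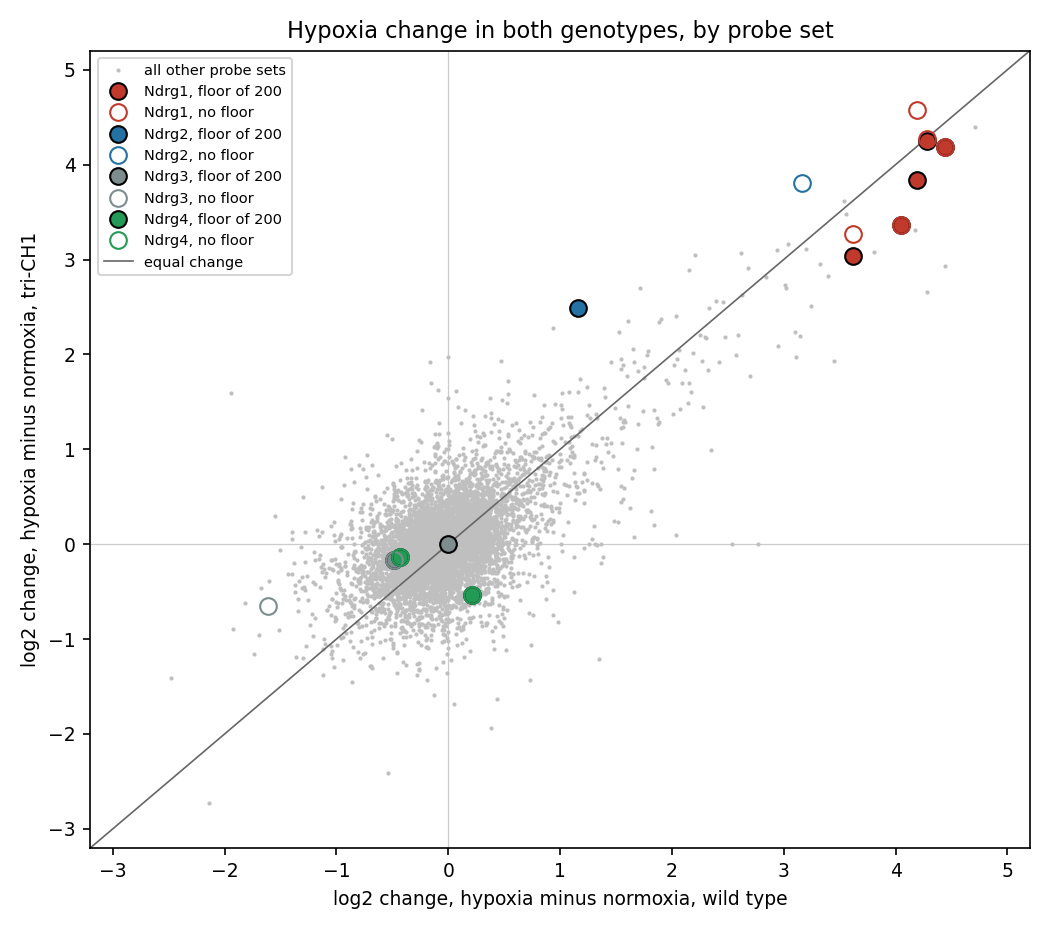
Log2 change from normoxia to hypoxia in wild type (horizontal axis) and in tri-CH1 (vertical axis). Grey points are the other probe sets at 500 or more, drawn only with the floor of 200. The Ndrg probe sets are drawn with that floor (filled) and without it (open), and the diagonal marks equal change. Ndrg1 lies at 3.62 or more in wild type and 3.04 or more in tri-CH1, Ndrg2 moves from 1.16 and 2.49 to 3.17 and 3.81 when the floor is removed, and Ndrg4 lies close to 0.

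Counted over the family, 7 of 10 probe sets were bright enough to count in the wild-type comparison of oxygen levels and 8 of 10 in that of tri-CH1. Of these, hypoxia raised 5 for wild type and 6 for tri-CH1, and none fell for either. Over all probe sets 3.22% and 3.27% rose, and 1.34% and 1.19% fell; the family was selected on these changes, so nothing is read from its share. All 5 of the wild-type rises were of Ndrg1, and the sixth in tri-CH1 was Ndrg2. Between the genotypes, 8 were bright enough to count in hypoxia, of which 2 were lower (1 of Ndrg1 and 1 of Ndrg4) and 1 was higher (Ndrg2) in tri-CH1, against 3.94% lower and 3.62% higher of all probe sets. None was past 2-fold in normoxia, where 3 were bright enough to count.

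HIF targets other than Ndrg1 give the setting for Ndrg1 and Ndrg2. Of a list of 50, 33 of 40 bright enough rose in wild type and 34 of 41 in tri-CH1, with medians of 2.19 and 1.93 on the log2 scale, against -0.06 and -0.04 for all genes; 3.05% of 4125 genes and 3.19% of 4358 genes rose, while 1.19% and 0.987% fell, and no listed target fell. The targets with the largest rises, by the smaller of the rises in the 2 genotypes, were Bnip3, a mitophagy receptor (26.2-fold for wild type, 21.1-fold for tri-CH1), and Ero1a, an oxidase of the endoplasmic reticulum (11.6-fold and 12.3-fold). Next was Egln3, a prolyl hydroxylase that marks HIF for degradation, with at least 18.1-fold and at least 9.91-fold. The adenylate kinase Ak4 rose at least 14.0-fold and 8.45-fold, Egln1, another such hydroxylase, 8.20-fold and 8.99-fold, and the pyruvate dehydrogenase kinase Pdk1 at least 7.69-fold and 8.57-fold. By its brightest probe set, the log2 change of Ndrg1 was above that of 37 of the 40 targets in wild type and 39 of 41 in tri-CH1 with the floor, which caps the change of targets dim in normoxia, and above 35 and 38 without it. In the genotype comparison at 0.1% oxygen, the 43 targets bright enough ran from -2.77 to 2.22 on the log2 scale, with a median of -0.09. Ndrg1, at -0.90, had 7 targets below it and 36 above, and Ndrg2, at 1.33, had 42 below it and 1, the carbonic anhydrase Car9, above. Of these targets 5 were lower in tri-CH1, namely Pgf, Angptl4, Slc2a3, Pfkfb3 and Tfrc, and 2 were higher, Car9 and Car12, against 3.31% and 3.76% of 4233 genes; the wild-type signal of Car9 (197) and the tri-CH1 signal of Pgf (39.3) were under the floor. These 7 were named after their values were seen.

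**Figure D4:**
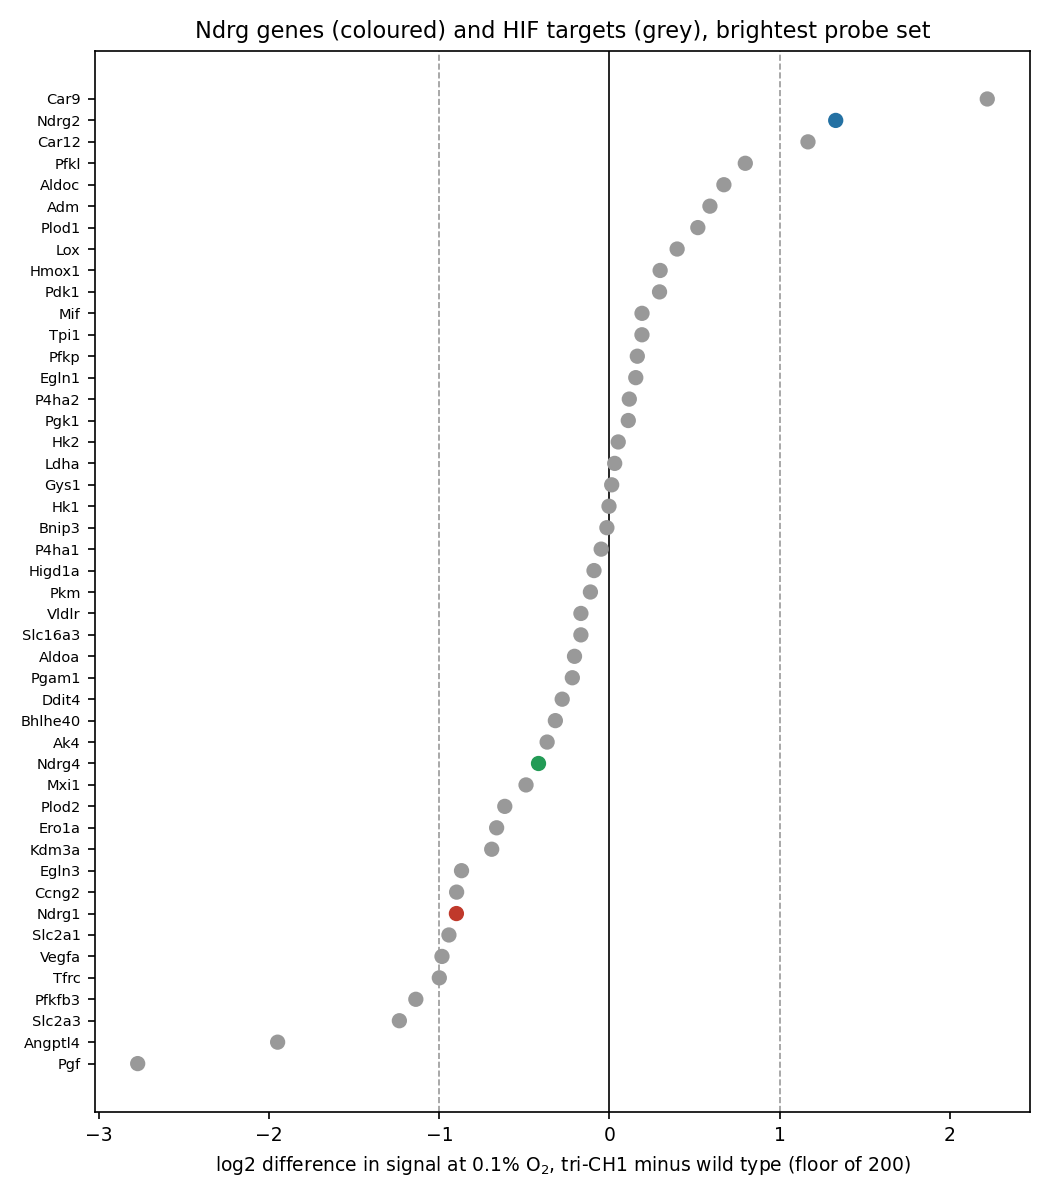
Log2 difference in signal at 0.1% oxygen, tri-CH1 minus wild type, with the floor of 200, for 43 HIF targets (grey) and Ndrg1, Ndrg2 and Ndrg4 (coloured), each by its brightest probe set; dashed lines mark 2-fold. Ndrg1 lies at -0.90 in the lower part of the targets and Ndrg2 at 1.33, above all of them except Car9.

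Among all genes, those whose pattern over the 4 arrays was most like that of Ndrg1 were Egln3, Slc2a3, Ero1a, Ak4 and Ccng2. Their root mean square difference from Ndrg1 on the log2 scale, after each gene's mean was subtracted, was 0.080, 0.21, 0.21, 0.31 and 0.41, with 4644 genes compared over the 4 arrays. Slc2a3 is a glucose transporter and Ccng2 a cyclin that slows the cell cycle. Egln3 had 170 and 3620 on the wild-type arrays and 140 and 1981 on the tri-CH1 arrays, so its distance rests on both normoxia signals being raised to 200. Nearest to Ndrg2 were Rcor2 (0.13), a corepressor subunit, Stc2 (0.28), a secreted glycoprotein, Pgm1 (0.29), which interconverts glucose phosphates, the metallothionein Mt1 (0.30) and Mgarp (0.33). For these distances both normoxia signals of Ndrg2 were raised to 200, as were 1 signal each of Rcor2 and Stc2 and 2 of Mgarp. Rcor2 had 220 and 419 on the wild-type arrays and 154 and 967 on the tri-CH1 arrays. Mt1 had 2821 and 9124, and 4150 and 14704. Nearest to Ndrg4 were Mri1, Nr4a1, Gnpnat1, Mospd1 and Ube2a, at 0.024 to 0.052; with changes this small, many genes lie close together. Ndrg3 did not reach 500 and was not compared.

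None of the listed regulators and partners bright enough to count rose or fell by 2-fold with hypoxia. Many were too dim to count. Of all genes, 3.05% rose and 1.19% fell in wild type, and 3.19% rose and 0.987% fell in tri-CH1. With shares this small, nothing is read from the absence of calls. Among kinases that phosphorylate NDRG proteins, 5 of 10 on the array were bright enough, and 0 rose or fell in either genotype. The kinase Sgk1 had signals of 1352 in wild-type normoxia, 1333 in wild-type hypoxia, 1332 in tri-CH1 normoxia and 2661 in tri-CH1 hypoxia. Its log2 change was -0.02 for wild type and 1.00 for tri-CH1, just short of the limit, and its difference in response of 1.02 passed the limit of 1. Among transcription regulators, 3 of 14 were bright enough in wild type and 6 in tri-CH1. Hif1a, the gene of the regulated HIF subunit, had log2 changes of 0.55 and 0.38 at signals from 2062 to 3179. Myc, a repressor of Ndrg genes, had 1465 and 1051 on the wild-type arrays and 695 and 1022 on the tri-CH1 arrays. It was thus lower in tri-CH1 in normoxia, at -1.08 on the log2 scale, with -0.04 in hypoxia and a difference in response of 1.04. Of all genes, 3.48% of 4333 were lower and 3.16% higher in normoxia, and 1.77% of 4645 passed 1 upward in the difference in response, against 1.46% downward. Egr1, an immediate early factor, had a genotype difference of 0.90 in normoxia and 1.29 in hypoxia. Ahr, the aryl hydrocarbon receptor gene, had signals of 39.4 and 12.0 on the wild-type arrays and 837 and 745 on the tri-CH1 arrays, higher by at least 2.06 and at least 1.90. Mycn, for which the family is named, was under 200 on all 4 arrays. Of 8 trafficking and lipid partners of NDRG1 on the array, 3 were bright enough; Ctnnb1, the beta-catenin gene, had log2 changes of 0.09 and 0.04. Sgk1, Hif1a, Myc, Egr1, Ahr, Mycn and Ctnnb1 were named after their values were seen.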

How the data were processed

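RNA of 4 groups was measured on 1 Affymetrix array each. Per the labels, the authors used the Affymetrix statistical algorithm, which gives each probe set a background-corrected intensity, and scaled every array to a target of 500. The deposited intensity is linear, and the software version was not given in the sources used here. Of 22690 probe sets, 20380 had 1 gene symbol in the platform annotation and were used. Signals under 200 were raised to 200, log2 ratios were taken between arrays, and a probe set with a signal of at least 500 on the brighter array was called at 2-fold. A difference in response was called at 1 on the log2 scale. Genes other than the members took their brightest probe set. No test was run, since there is 1 array per group; the number of arrays limits the precision. Members, lists and limits were chosen with earlier results of these data known. Named genes were all members, listed genes past 2-fold in both genotypes (at most 6 per list) and the 5 most alike genes per member. The calling rule was tested on simulated data. Alternatives were other floors and minimum signals, 3 normalizations, and the mean over probe sets. Python 3.11.15, pandas 2.3.3, numpy 2.4.6, matplotlib 3.10.9, R 4.3.3 and limma 3.58.1 were used.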

Additional observations from a re-analysis of the deposited data

Results flagged for a closer look

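On Ndrg4 probe set 1436188_a_at the 2 genotypes moved in opposite directions with hypoxia, with log2 changes of 0.21 (wild type) and -0.53 (tri-CH1) and 1 array on each side of each change; the difference was not tested. The brighter Ndrg4 probe set, 1426615_s_at, moved the same way in both, by -0.44 and -0.13.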

How the results depend on the processing

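The count of 6 Ndrg probe sets that rose in tri-CH1 and those of 2 lower and 1 higher in tri-CH1 hypoxia were the same under all 9 alternatives run on probe sets; the count of 5 in wild type became 6 with a minimum signal of 250, which admits Ndrg2. The difference in response depended on the floor. The 1 probe set called higher in it, Ndrg2, became 0 with no floor and 0 with each array's scaled background as its floor, and the 0 called lower became 1 with a floor of 400 and 2 with the scaled background. The scaled background is larger on the tri-CH1 arrays than on the wild-type arrays, so as a floor it does not treat the genotypes alike. With that floor the tri-CH1 rises of Ndrg1 ran from 2.26 to 3.56 on the log2 scale. Under quantile normalization, cyclic loess and median scaling, all 50 values of single probe sets moved by less than the SD between probe sets of a gene. Median scaling put the median of all probe sets at -0.25 for the genotype difference in normoxia (0.00 as deposited) and 0.18 for the difference in response (0.03). It moved the share of higher among called probe sets from 70.7% to 60.5% in wild type, 73.3% to 84.4% in tri-CH1, 44.1% to 20.6% between genotypes in normoxia and 54.7% to 76.4% for the difference in response. The mean over all probe sets moved the difference in response of Ndrg1 from -0.68 to -0.19. No paired analysis was possible because each group has 1 array, and no array could be left out.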
